A study of Canis lupus familiaris with 39 samples.

Results

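The genes described here are 45 genes of the cell division machinery, followed through 10 normal organs of the dog. A gene was included when a probeset of the array carried its symbol, and no other, in the probe gene table. Of the 45 genes, 40 had such a probeset, with 89 probesets between them out of 42860 on the array, which names 15115 genes in this way. MKI67, CCNB1, BUB1, CENPE and MAD2L1 had none and are not described. The RNA came from jejunum, lymph node, spleen, lung, liver, kidney, pancreas, cerebrum, heart and skeletal muscle, each with 4 arrays except pancreas, which had 3. All were labelled normal, and none was treated. A further pancreas sample was left out by the study as an outlier, in part because it lacked pancreatic genes such as insulin. The study's methods describe beagles and mixed breed dogs of both sexes, from puppy to adult, with every organ taken from each dog and the lymph node being a peripheral one, but the labels do not say which array came from which dog. Jejunum, lymph node and spleen are named here the dividing organs, and cerebrum, heart and skeletal muscle the post-mitotic organs. These names come from what the organs are known for, since cell division itself was not measured. The p-values measure only the spread between arrays of the same organ, pooled over the 10 organs. Differences between the organs of a group do not enter them, so they do not speak for dividing organs as a class. The study took its organs from 4 dogs, so arrays of different organs are not independent animals.

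A cell that divides first copies its DNA and then hands a full set of chromosomes to each daughter cell. Before copying starts, the MCM proteins are loaded on the DNA by CDC6, and cyclins then switch on their kinase partner CDK1 to drive the cell into mitosis. Most of these genes are transcribed only in cells on their way to division, which in the adult body lie in the crypts of the intestine, in the follicles of lymphoid organs and in blood-forming tissue, while neurons and muscle fibres have left the cycle.

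Each value is the log2 signal of a probeset, relative to the rest of its array. Array medians ran from 3.95 to 4.11, so a level near 4 is that of most probesets and cannot be told from background. Pearson's r between arrays of one organ, taken across all probesets, ran from 0.889 in skeletal muscle to 0.995 in lung. Marker genes of each organ were highest in the arrays of that organ, but pancreatic genes were also seen elsewhere. The median of the pancreas markers CPB1, PNLIP and INS, each centred on the mean of the 10 organ means, lay between 8.15 and 8.26 in pancreas. It also stood at 2.53, 3.53 and 4.74 in skeletal muscle arrays 1, 3 and 4, at 2.15 in cerebrum array 3 and at 0.52 in lymph node array 4. Skeletal muscle markers stood at 3.20 in cerebrum array 3 and 0.75 in cerebrum array 1, against 8.20 to 8.44 in skeletal muscle. The counts below are therefore also given with those 5 arrays left out where they change, a step chosen after seeing the data.

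In the dividing organs 35 of the 40 genes were higher than in the post-mitotic organs and 0 were lower, by limma at a false discovery rate of 0.001. Among all probesets, 13.7% were called higher and 13% lower in the same contrast. The median difference of the 40 genes was 1.52 on the log2 scale, a fold of 2.86, against −0.02 over all probesets. The difference exceeded 1 for 27 genes and 2 for 13 genes. For 13 genes every one of the 12 arrays of the dividing organs lay above every one of the 12 arrays of the post-mitotic organs, which held for 1.48% of all probesets. For some of these genes the gap was negligible. The lowest dividing and highest post-mitotic values were 3.480 and 3.475 for BUB1B, near background, and 8.079 and 8.064 for TYMS. In these whole-organ samples a larger share of dividing cells and more RNA per cell cannot be told apart. With the 5 arrays that held pancreatic genes left out, 34 genes were called higher and 0 lower. The split rests on the authors' scaling of the arrays. The arrays were then moved instead so that 13 housekeeping genes had the same median on all of them. After this shift the same test called 13 genes higher and 10 lower. Of all 42860 probesets it called 968 higher and 36114 lower, and their median moved to −1.24. A shift moves every gene of an array alike, so it leaves the distance of 1.53 between the median of the 40 genes and that of all probesets as it was by construction. Of those housekeeping genes, 9 were themselves called higher and 1 lower in the dividing organs.

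**Figure D1:**
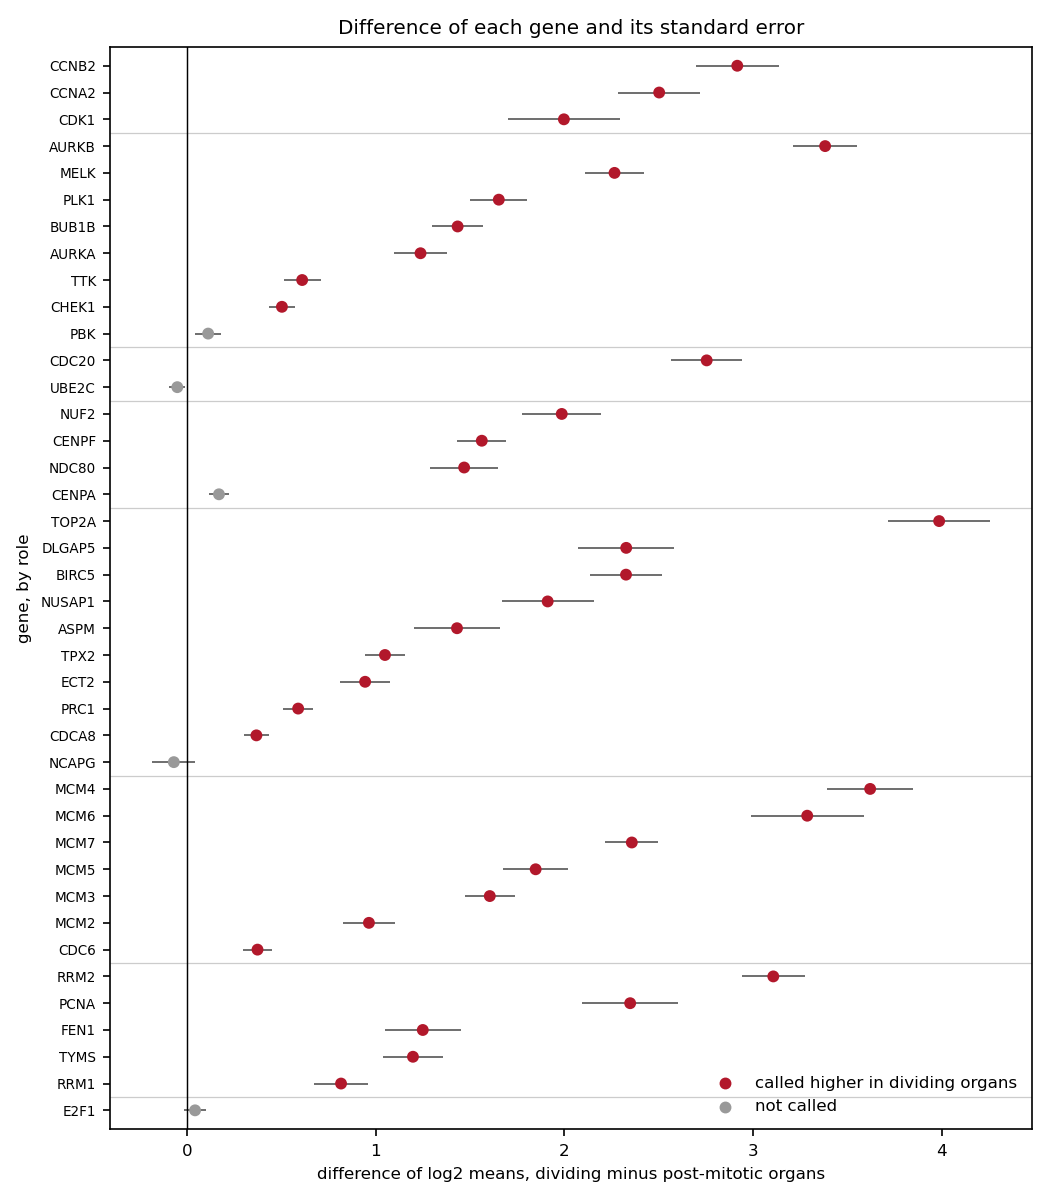
Difference of log2 means between the dividing organs and the post-mitotic organs for each of the 40 genes, with limma's standard error as the bar, grouped by role. Points in red were called higher, grey points were not called. TOP2A lies farthest to the right at 3.99, and the 5 grey genes NCAPG, UBE2C, E2F1, PBK and CENPA lie between −0.07 and 0.17.

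The cyclins and CDK1 were all higher in the dividing organs. CCNB2, a B-type cyclin that opens mitosis, had a lowest, median and highest level of 4.25, 6.94 and 8.49 over the 12 arrays of the dividing organs, against 3.45, 3.73 and 4.52 over those of the post-mitotic organs. Spleen arrays 3 and 4 overlapped with the highest skeletal muscle array, and the other 10 arrays lay above all of them. The difference was 2.92 ± 0.22 (SE; adjusted p = 7.69e-13). CCNA2, the cyclin of S phase and early mitosis, stood at 3.89, 6.03 and 7.77 in the dividing organs, against 3.42, 3.48 and 3.73 in the post-mitotic organs. Its groups did not overlap, and its fold was 5.67 (adjusted p = 2.45e-11). CDK1, the kinase that both cyclins activate, stood at 5.82, 6.69 and 8.24 in the dividing organs, against 3.57, 4.46 and 7.84 in the post-mitotic organs. The wide overlap of CDK1 came from the heart, described further on. Its fold was 4.0 (difference 2.0 ± 0.30 SE, adjusted p = 1.22e-06).

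Of the 8 kinases of mitosis and its checkpoints, 7 were higher. AURKB, the kinase that corrects faulty attachment of chromosomes, reached 5.51, 7.50 and 8.29 in the dividing organs, against 3.48, 3.81 and 4.23 in the post-mitotic organs. The groups lay more than 1 log2 unit apart, and the fold was 10.4 (adjusted p = 3.35e-17). MELK, a kinase of dividing and progenitor cells, stood at 4.03, 5.65 and 6.89 in the dividing organs, against 3.11, 3.33 and 4.0 in the post-mitotic organs. Its ranges did not overlap but nearly met, close to background (fold 4.81, adjusted p = 1.22e-13). PLK1, which matures the spindle poles, was 3.15-fold higher, BUB1B, a spindle checkpoint kinase, 2.70-fold, and AURKA, the kinase of the spindle poles, 2.36-fold. TTK, another spindle checkpoint kinase, and CHEK1, the kinase that holds cells with damaged DNA, were also called, with folds of 1.53 and 1.42. The levels of both stayed under 5 in every organ mean. PBK, a mitotic kinase, was not called, with a difference of 0.11 ± 0.07 (SE; adjusted p = 0.208).

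Among the genes that act through the chromosomes themselves, TOP2A had the largest difference of the 40. It encodes topoisomerase II alpha, which untangles DNA before chromosomes part. Its levels were 9.03, 8.84, 8.39 and 7.67 in jejunum, 9.35, 8.72, 8.10 and 8.22 in lymph node and 6.93, 7.18, 4.18 and 4.03 in spleen, against 3.31 to 3.87 over the 12 arrays of the post-mitotic organs. All 12 arrays of the dividing organs were above this range, spleen arrays 3 and 4 by little. The fold was 15.9 (difference 3.99 ± 0.27 SE, adjusted p = 5.75e-14). DLGAP5, a spindle protein that stabilises kinetochore fibres, and BIRC5, the survivin subunit that carries AURKB to the centromere, were each 5.02-fold higher. NUSAP1, which bundles spindle microtubules, was 3.76-fold higher, ASPM, a protein of the spindle pole, 2.70-fold, and TPX2, an activator of AURKA, 2.07-fold. ECT2, which starts the cleavage furrow, was 1.92-fold higher, PRC1, which crosslinks the central spindle, 1.5-fold, and CDCA8, a partner of BIRC5 and AURKB, 1.29-fold. In this role 9 of 10 genes were called, and NCAPG, a subunit of the condensin complex, was not.

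Of the 4 kinetochore genes, 3 were higher. NUF2, part of the complex that grips microtubules, stood at 4.23, 5.85 and 7.38 in the dividing organs, against 3.64, 3.78 and 4.55 in the post-mitotic organs (fold 3.96, adjusted p = 1.33e-09). Only spleen arrays 3 and 4, at 4.28 and 4.23, overlapped, with skeletal muscle array 3 alone. NDC80, its partner, was 2.77-fold higher and CENPF, a large protein of the outer kinetochore, 2.95-fold. CENPA, the histone H3 variant of centromeres, had a difference of 0.17 ± 0.05 (SE; adjusted p = 0.008) and was not called. Beside these, CDC20, which activates the ubiquitin ligase that ends metaphase, stood at 4.84, 7.16 and 8.55 in the dividing organs, against 3.73, 4.19 and 5.38 in the post-mitotic organs. Its highest post-mitotic value, 5.38, was that of cerebrum array 1 alone, with the other 11 at or below 4.48. The fold was 6.75 (adjusted p = 6.36e-14). UBE2C, the ubiquitin-conjugating enzyme of the same ligase, lay between 3.39 and 3.78 in the dividing organs and between 3.43 and 3.86 in the post-mitotic organs.

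The genes of DNA replication were all higher, 7 of 7 for licensing and 5 of 5 for DNA and nucleotide synthesis. MCM4, a subunit of the replicative helicase, stood at 6.69, 8.65 and 10.20 in the dividing organs, against 4.29, 5.02 and 5.64 in the post-mitotic organs. The groups were separate by more than 1 log2 unit, and the fold was 12.3 (adjusted p = 1.14e-14). MCM6, MCM7, MCM5, MCM3 and MCM2, the other subunits of this 6-part ring, were 9.77-, 5.13-, 3.60-, 3.04- and 1.95-fold higher. CDC6, the loader of the ring, stands here as its probeset of highest mean. That probeset was 1.30-fold higher (adjusted p = 0.000125) at levels of at most 4.93. A dimmer probeset differed by 1.28 (adjusted p = 6.25e-07), at 4.16 to 6.68 in lymph node, and another by 0.37 (adjusted p = 0.000651). With the 5 arrays that held pancreatic genes left out, CDC6 was no longer called (adjusted p = 0.00231).

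Of the synthesis genes, RRM2, the S-phase subunit of ribonucleotide reductase, stood at 4.96, 7.75 and 9.18 in the dividing organs, against 3.95, 4.16 and 4.47 in the post-mitotic organs. There was no overlap, and the fold was 8.62 (adjusted p = 1.98e-16). PCNA, the sliding clamp of DNA polymerase, was 5.10-fold higher (adjusted p = 2.64e-09), FEN1, the nuclease that trims Okazaki fragments, 2.38-fold, and TYMS, which makes thymidylate, 2.29-fold. RRM1, the large subunit that RRM2 pairs with, was 1.76-fold higher (adjusted p = 2.01e-05), with levels of 8.14 to 10.05 in the dividing organs and 7.46 to 9.08 in the post-mitotic organs. The subunits thus differed in their range, RRM1 being well above background in every organ. E2F1, the transcription factor that switches on many S-phase genes, showed no call (difference 0.04 ± 0.06 SE, adjusted p = 0.601), and its levels lay between 3.85 and 4.33 in the dividing organs and between 3.65 and 4.21 in the post-mitotic organs.

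The 5 genes that were not called differed in what their probesets showed. A gene with several probesets is represented here by its brightest, averaged over the 39 arrays. For NCAPG that probeset stood apart from the other 4, which were all called higher in the dividing organs, with differences from 0.88 to 2.55. The representative one had a mean of 5.93 in kidney and 5.55 in cerebrum, and its r with the median of the other members over the 39 arrays was −0.23, the lowest of the 40. A second probeset of CENPA and of PBK was called, with differences of 0.58 and 0.52. In the other direction, 9 of the 35 called genes had probesets that were not called, 12 in all, with differences from −0.11 to 0.55. These were 2 of 3 for FEN1, 2 of 4 each for MCM3 and PRC1, and 1 each for RRM1, TYMS, NUSAP1, TPX2, DLGAP5 and MELK. UBE2C had 3 probesets, none called and none with an organ mean above 3.74, and E2F1 had 1. In all, 70 of the 89 probesets were called higher and 0 lower. Of the 32 probesets that stayed under 5 in every organ mean 15 were called, and of the 57 that reached it 55.

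**Figure D2:**
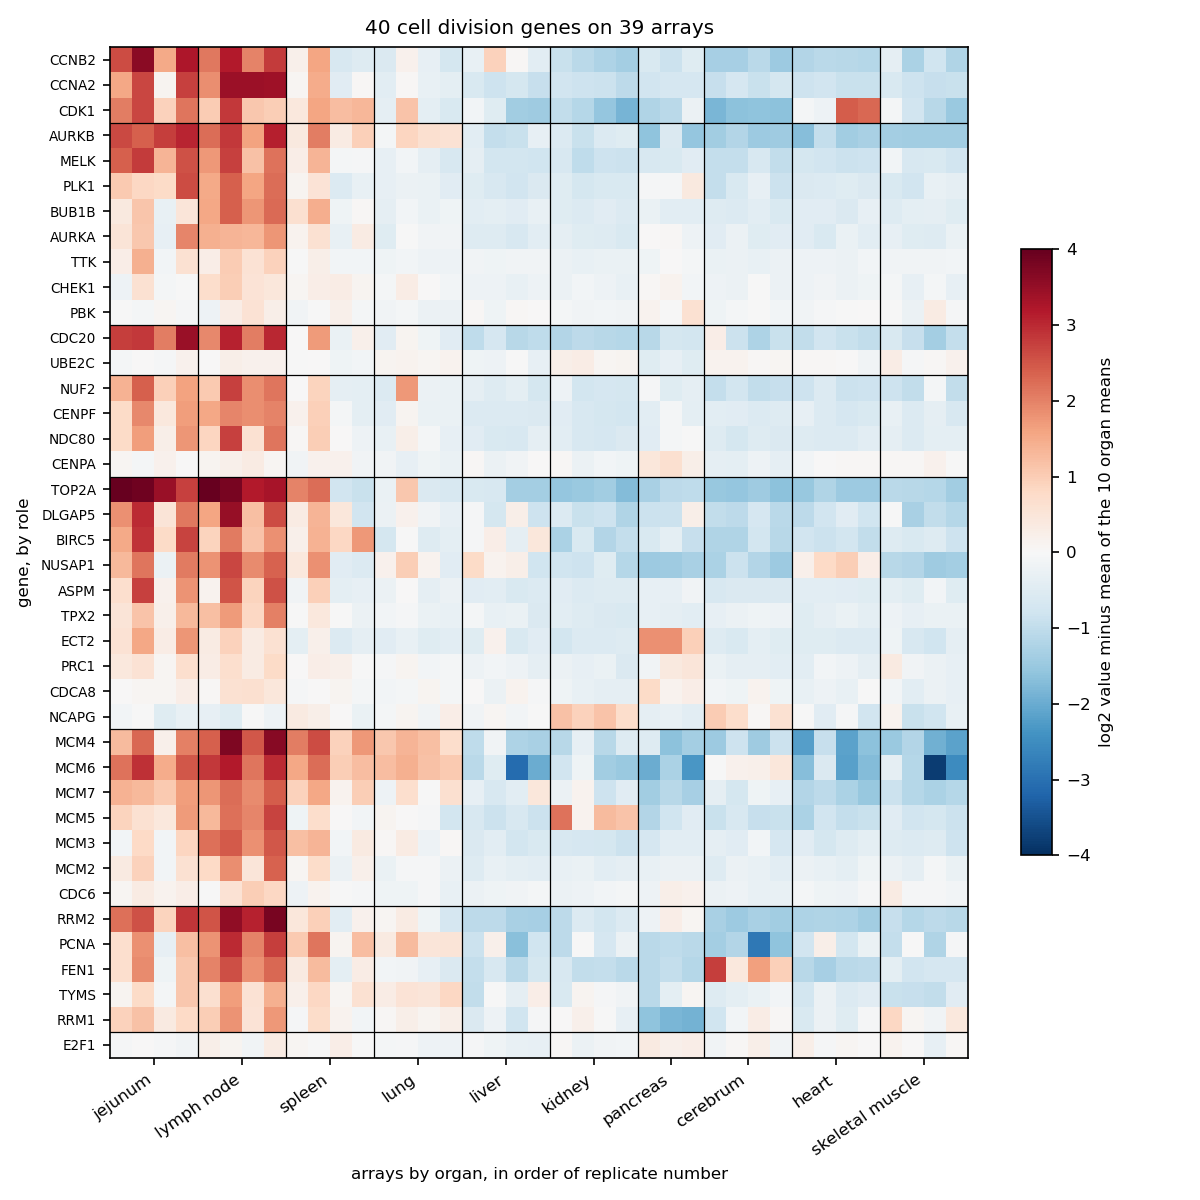
Level of the 40 genes on the 39 arrays, each log2 value minus the mean of the 10 organ means of its gene, with genes grouped by role and arrays by organ. Red fills jejunum and lymph node, array 2 of spleen is redder than the other 3, and single red blocks stand out for CDK1 in heart, FEN1 in cerebrum, MCM5 in kidney and ECT2 in pancreas.

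The organs were then set one by one against the mean of the post-mitotic organs. These contrasts share the same 12 arrays on one side. Lymph node had 35 genes higher (12.1% of all probesets), with a median difference of 2.30. Jejunum had 29 genes higher (8.32% of all probesets), with a median of 1.65. Spleen had 13 genes higher (8.36% of all probesets), with a median of 0.77, and 8 genes without spleen array 2. No gene was called lower in these 3 organs. After the shift to 13 housekeeping genes, 17 genes were higher and 5 lower in lymph node. In jejunum 13 were higher and 5 lower, and in spleen 3 were higher and 9 lower. Of all 42860 probesets 843 were then higher and 34843 lower in lymph node, 1309 and 31530 in jejunum, and 912 and 32744 in spleen. A shorter housekeeping list of 7 genes, without ribosomal protein genes and EEF1A1, was chosen after seeing the data. With it 22, 14 and 3 genes were higher in these organs and 0 lower. Of all probesets 1374, 1326 and 1051 were then higher and 4922, 4833 and 4727 lower. A mean over lymph node was the highest of the 10 organ means for 28 genes, over jejunum for 6, over pancreas for 4 and over kidney for 2. In 22 genes the means of these organs descended from lymph node through jejunum and spleen to lung. The F test among the 10 organs called 38 of the 40 genes (54.6% of all probesets), all but PBK and E2F1.

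Dividing organs also varied most from array to array. In them 19 to 30 of the 40 genes had an organ mean of 5 or more, against 5 to 14 in the other organs. Values near background have little room to vary, and the part of level in this spread was not tested. The median of the 40 genes, each centred on the mean of its 10 organ means, was 0.73, 1.48, 0.19 and 1.68 on jejunum arrays 1 to 4, 1.25, 2.32, 1.19 and 2.16 on lymph node arrays 1 to 4, and 0.13, 0.95, −0.01 and −0.05 on spleen arrays 1 to 4. Arrays 2 and 4 were the high ones in jejunum and lymph node, and array 2 in spleen. In lung the values were −0.16, 0.12, −0.17 and −0.25, array 2 again being the highest, and the other 6 organs lay between −0.62 and −0.36. Within spleen 33 of the 40 genes were highest on array 2, and within lung 33 of the 40. The difference between arrays of an organ includes the dog, the piece of tissue and the array, which cannot be told apart here.

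**Figure D3:**
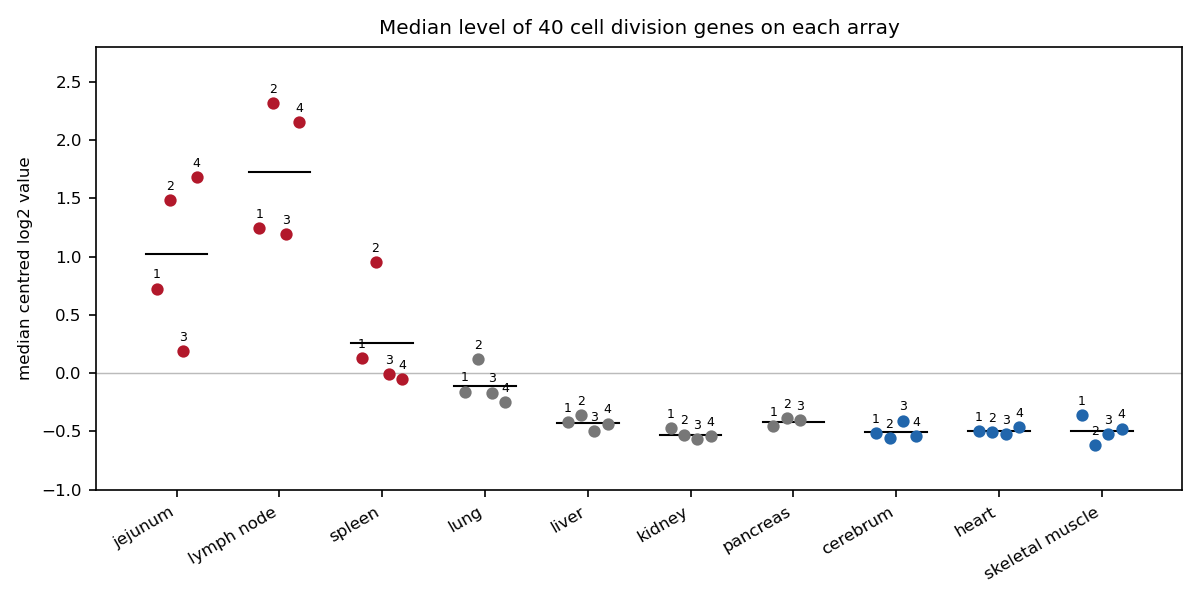
Median centred log2 value of the 40 genes on each array, by organ, with the replicate number above each point and a bar at the organ mean. Dividing organs are red, post-mitotic organs blue and the others grey. Lymph node runs from 1.19 to 2.32 and jejunum from 0.19 to 1.68, above all arrays of the blue organs.

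Some marker genes of the cells in these organs moved with these differences, and others did not. In jejunum OLFM4, a gene of crypt stem cells in the human intestine, had levels of 6.44, 9.62, 5.30 and 9.99 on arrays 1 to 4. The arrays high in OLFM4 were those high in the cell division genes, but the median of all 7 crypt markers was flat, from 0.09 to 0.13, and was highest on array 3, where the cell division genes were lowest. CDX2, an intestinal transcription factor, was also higher on arrays 2 and 4, at 5.88 and 6.11, against 5.09 and 4.60 on arrays 1 and 3. LGR5, the classical crypt marker, stayed between 3.47 and 3.75 in jejunum, and ASCL2, EPHB2 and SOX9 were likewise not called in the dividing organs, so that 3 of 7 crypt markers were (OLFM4, SMOC2 and CDX2). SMOC2 stood between 7.89 and 8.62 in jejunum, against 8.12 to 9.65 in spleen. The 4 markers of mature intestinal epithelium were all called, and their median was nearly flat over the jejunum arrays, from 6.25 to 6.56. Of all probesets 13.7% were called higher in the dividing organs.

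In spleen the median of the lymphocyte markers was 3.59, 3.74, 0.71 and 2.48 on arrays 1 to 4, against 3.73 to 5.38 in lymph node. Array 3 was low, and MS4A1, a B cell marker, stood at 4.93 there against 7.06 to 9.77 on the other spleen arrays. Of the 6 lymphocyte markers 5 were called higher in the dividing organs, and 1 of 5 germinal centre markers (ELL3). RGS13, S1PR2 and MYBL1 were not called. On lymph node arrays 1 to 4 the lymphocyte median was 3.73, 4.66, 5.38 and 4.65. The germinal centre median was 1.15, 0.23, 0.67 and 0.42 on these arrays, while the cell division genes were highest on lymph node arrays 2 and 4. ALAS2, the haem synthesis enzyme of red cell precursors, was at 10.97 to 12.39 in spleen and at 4.81 or less in jejunum, lymph node and lung. It was called with EPB42, while KLF1, GATA1 and SLC4A1 were not, which makes 2 of 5 erythroid markers. CTSG, a granule protease of myeloid precursors, was at 5.36, 6.80, 6.90 and 5.25 in spleen, 1 of 3 myeloid markers called, and ITGA2B was 1 of 2 megakaryocyte markers. Of all probesets 13.7% were called higher in the dividing organs, so 1 or 2 calls in lists this short say little. The part of these cell types in the levels of the cell division genes was not tested.

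Lymph node and jejunum were each higher than spleen in many genes. Between lymph node and spleen 18 genes were higher in lymph node (1.65% of all probesets) and 0 lower, with a median difference of 1.27. Leaving out lymph node array 2, spleen array 3 or spleen array 4 brought this to 11 genes each, as did leaving out the 5 arrays that held pancreatic genes. RRM2 had levels of 7.91, 8.93, 8.46 and 9.18 in lymph node, against 5.85, 6.35, 4.96 and 5.56 in spleen. Every lymph node array lay above every spleen array, and the fold was 7.67 (adjusted p = 7.13e-09). CCNA2 had levels of 6.18, 7.77, 7.75 and 7.72 in lymph node, against 4.40, 5.82, 3.89 and 4.37 in spleen, a fold of 6.65 (adjusted p = 3.32e-06). TOP2A was 8.10-fold higher and CENPF 3.20-fold.

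Between jejunum and spleen 9 genes were higher in jejunum (4.69% of all probesets) and 0 lower: TOP2A, CCNB2, CDC20, MELK, RRM2, AURKB, PLK1, ECT2 and CENPF. TOP2A was 7.49-fold higher in jejunum (adjusted p = 1.44e-05) and CCNB2 6.03-fold (adjusted p = 3.28e-06). CDC20 had levels of 7.87, 7.93, 7.16 and 8.55 in jejunum, against 5.13, 6.80, 4.84 and 5.31 in spleen, with no overlap (fold 5.12, adjusted p = 1.08e-06). Of these 9 genes 8 belong to roles other than replication and nucleotide synthesis, as do 28 of the 40 members. None of the MCM genes was called here, and the difference of MCM3 was −0.35 ± 0.23 (SE) and of MCM4 −0.38 ± 0.40 (SE).

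Jejunum and lymph node were closer. No gene was higher in jejunum (4.92% of all probesets) and 3 were lower (4.88%), with a median difference of −0.42. With the replicate number as a block 5 genes were lower. MCM3 had levels of 4.64, 5.56, 4.64 and 5.60 in jejunum, against 6.97, 7.20, 6.58 and 7.23 in lymph node. The organs did not overlap, and the difference was −1.89 ± 0.23 (SE; adjusted p = 8.51e-08). BUB1B differed by −1.58 (adjusted p = 2.82e-06) and CHEK1 by −0.59 (adjusted p = 0.000346). The count reached 5 without jejunum array 2, lymph node array 1 or lymph node array 3, and 6 without jejunum array 4. CDK1, CCNB2, AURKB, MELK, CDC20, BIRC5 and ECT2 had the higher mean in jejunum, by 0.22 to 0.50, and NCAPG by 0.04, and none of these differences was called.

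Lung, liver, kidney and pancreas lay mostly near the post-mitotic organs, with lung above them. Over the 15 arrays of these 4 organs TOP2A had a lowest, median and highest level of 3.20, 3.90 and 6.0, CCNB2 of 3.54, 4.31 and 5.82, and CDC20 of 3.93, 4.07 and 5.21. MELK reached 3.99 at most and CENPF 4.31. The genes of replication spanned more, MCM4 from 4.83 to 7.83 and PCNA from 6.28 to 9.21. For both, the upper end was lung, where MCM4 averaged 7.56 ± 0.27 and PCNA 8.60 ± 0.41 (SD, n = 4). The liver means were 5.56 ± 0.53 for MCM4 and 7.17 ± 0.76 for PCNA (SD, n = 4).

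Outside the dividing organs, lung had 7 genes higher than the post-mitotic organs (9.72% of all probesets), with a median difference of 0.33. These were MCM4, MCM6, MCM7, PCNA, RRM2, TYMS and AURKB. MCM4 had levels of 7.55, 7.83, 7.67 and 7.19 in lung, against at most 5.64 in the post-mitotic organs, and a fold of 6.04 (adjusted p = 9.07e-08). MCM6 stood between 8.92 and 9.30 in lung, above every array of the post-mitotic organs, and was 4.99-fold higher (adjusted p = 4.39e-05). AURKB, the only mitotic gene of the 7, stood at 5.10, 6.03, 5.84 and 5.77 and was 3.62-fold higher (adjusted p = 1.68e-07). The lung count was 4 without lung array 2, without lung array 3, and without the 5 arrays that held pancreatic genes. After the shift to 13 housekeeping genes 1 gene was higher in lung and 19 were lower. Of all 42860 probesets 861 were then higher and 34216 lower. With the shorter list 2 genes were higher and 0 lower, against 1243 and 3747 of all probesets.

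By role, 6 of the 12 genes of replication and nucleotide synthesis were called in lung and 1 of the 28 others. In spleen, where the total of 13 was 8 without array 2, these counts were 7 of 12 and 6 of 28, in jejunum 8 of 12 and 21 of 28, and in lymph node 12 of 12 and 23 of 28. Of all probesets 9.72% were called higher in lung, 8.36% in spleen, 8.32% in jejunum and 12.1% in lymph node. The median difference of the 12 was 0.87 in lung and 1.09 in spleen, against 0.26 in lung and 0.64 in spleen for the 28 others. In jejunum it was 1.37 for the 12, against 1.65 for the others. Of the 12 genes, 11 reached an organ mean of 5, against 20 of the 28, and the part of brightness in these counts was not tested. TOP2A, called in all 3 dividing organs, stood at 4.68, 6.0, 4.35 and 4.28 in lung and was not called there (adjusted p = 0.0096). CDK1 and NUF2 were likewise high on lung array 2 alone, at 6.55 and 6.37, against at most 5.05 and 4.40 on the other lung arrays.

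**Figure D4:**
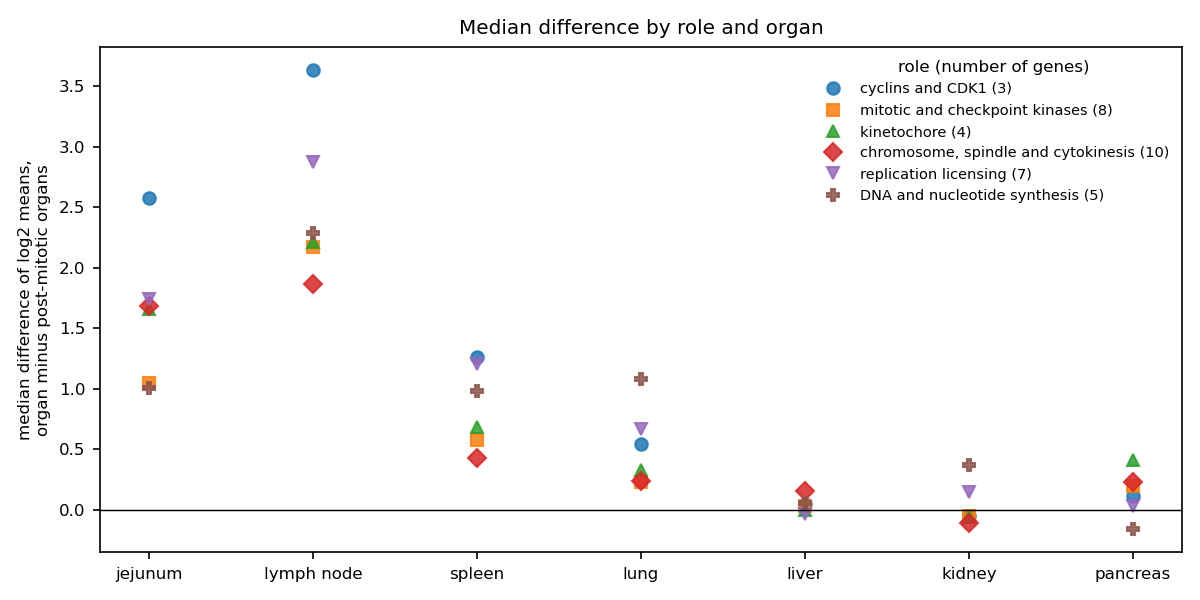
Median difference of log2 means from the post-mitotic organs for 6 roles in 7 organs, with the number of genes in each role. In lung the highest point is DNA and nucleotide synthesis at 1.08, followed by replication licensing at 0.67, while in jejunum DNA and nucleotide synthesis is the lowest at 1.01. In liver all 6 lie between −0.04 and 0.16.

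Liver had 0 genes called higher (8.13% of all probesets) and 0 lower, with a median difference of 0.02. At a false discovery rate of 0.05 liver had 4 genes higher and 2 lower, against 5490 and 7611 of all 42860 probesets. Its highest level relative to the post-mitotic organs was that of CCNB2, at 4.59, 5.82, 4.94 and 4.47 (adjusted p = 0.0032, not called). Kidney had 2 genes higher (8.14% of all probesets) and a median difference of −0.04. These were MCM5 and the outlying probeset of NCAPG (difference 1.05, adjusted p = 3.43e-06). MCM5 had levels of 8.37, 6.34, 7.48 and 7.34 in kidney, against 4.95 to 5.75 in the post-mitotic organs, which were all lower. Its fold was 4.03 (adjusted p = 5.19e-08), and its 3 probesets had means of 7.38, 6.69 and 6.17 in kidney, each below that of lymph node. None of the 5 other MCM genes was called in kidney, where their differences ran from −0.22 to 0.74. After the shift to 13 housekeeping genes 0 genes were higher and 23 lower in kidney, against 1251 and 31852 of all 42860 probesets.

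Pancreas had 4 genes higher (11.7% of all probesets) and 2 lower (12.1%). ECT2 had levels of 6.30, 6.31 and 5.43 in pancreas, against 3.67 to 4.31 in the post-mitotic organs. The arrays were well apart, and the pancreas mean was the highest of the 10 organs, with a fold of 4.10 (adjusted p = 2.04e-09). RRM2 was 2.42-fold higher (adjusted p = 0.000197), CDCA8 1.49-fold and CENPA 1.46-fold. RRM1 had levels of 6.65, 6.41 and 6.36 in pancreas, against 7.46 to 9.08 in the post-mitotic organs, and was the lowest there of all organs. Its difference was −1.72 ± 0.23 (SE; adjusted p = 2.84e-07). The 2 other probesets of RRM1 were not called in pancreas, with differences of −0.45 (adjusted p = 0.244) and 0.29 (adjusted p = 0.289), and the second probesets of RRM2 (difference 0.52, adjusted p = 0.159) and of CENPA (0.29, adjusted p = 0.0636) were not called either. UBE2C differed by −0.50 (adjusted p = 3.15e-07), at levels of 3.07 to 3.23, and its 2 other probesets by −0.04 and −0.09, neither called. After the shift to 13 housekeeping genes 1 gene was higher and 4 were lower in pancreas, against 659 and 10674 of all 42860 probesets.

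**Figure D5:**
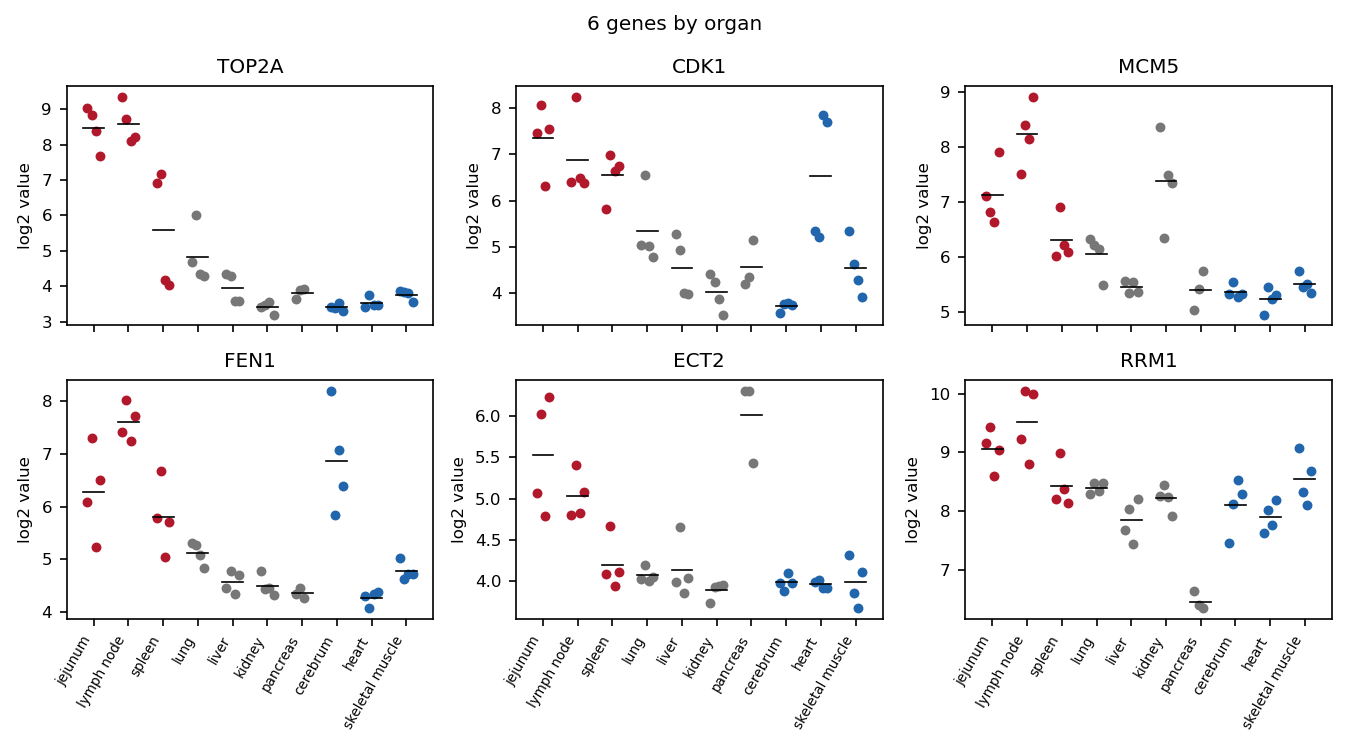
Log2 value on each array of TOP2A and of 5 genes that depart from its pattern, by organ, with a bar at the organ mean and separate vertical scales. Dividing organs are red, post-mitotic organs blue and the others grey. CDK1 reaches 7.84 and 7.70 on 2 heart arrays, MCM5 6.34 to 8.37 in kidney, FEN1 5.84 to 8.19 in cerebrum and ECT2 5.43 to 6.31 in pancreas, while RRM1 falls to 6.36 in pancreas.

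Some members were high in a post-mitotic organ, and these values are a description with no test. CDK1 had levels of 5.34, 5.21, 7.84 and 7.70 in heart. Arrays 3 and 4 were as high as the jejunum arrays (7.46, 8.07, 6.32 and 7.54), and all 3 probesets of CDK1 were higher on arrays 3 and 4 than on arrays 1 and 2. The cyclins did not follow, CCNA2 being at 3.44 and 3.45 and CCNB2 at 3.79 and 3.75 on heart arrays 3 and 4, and TOP2A was at 3.47 on both. NUSAP1 stood at 5.54, 6.13, 6.31 and 5.59 in heart, against 3.88 to 4.47 in cerebrum and skeletal muscle together. Of its 3 other probesets, none had a heart mean above 3.70.

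In cerebrum FEN1 had levels of 8.19, 5.84, 7.06 and 6.38, which overlapped those of lymph node (7.41, 8.01, 7.23 and 7.71), while heart and skeletal muscle lay between 4.08 and 5.03. Its 2 other probesets had cerebrum means of 3.86 and 4.09, against 4.02 and 3.63 in heart and 3.99 and 3.81 in skeletal muscle. MCM6 stood at 7.86, 8.05, 8.08 and 8.34 in cerebrum, against 4.09 to 7.52 in heart and skeletal muscle, and its second probeset had a cerebrum mean of 6.93, against 4.77 in heart and 4.44 in skeletal muscle. MCM4, its neighbour in the ring, was at 5.04 to 5.64 in cerebrum.

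Further genes of the same machinery, taken from lists drawn up by role, were described in the same way. Of 46 more mitosis genes, 41 had a probeset, and 33 of these were higher in the dividing organs and 1 was lower. Among all probesets, 13.7% were higher and 13% lower. The largest differences were those of PTTG1, the securin that holds sister chromatids together (3.33), NCAPD2, a condensin subunit (2.43), and KIF11, the motor that pushes spindle poles apart (2.34). FOXM1, a transcription factor of mitotic genes, differed by 0.01 and was not called. CENPN, a protein of the inner kinetochore, was the lower one, at 5.53 to 6.03 in jejunum, 5.98 to 6.99 in lymph node and 6.70 to 7.60 in spleen, against 6.94 to 8.56 in the post-mitotic organs (difference −1.33 ± 0.17 SE, with some overlap, adjusted p = 5.43e-08).

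Of 36 more replication genes 33 had a probeset, and 22 were higher and 0 lower, led by ORC1, a subunit of the origin recognition complex (2.65), CDC7, the kinase that fires origins (2.54), and POLE2, a DNA polymerase subunit (2.36). CDC7 did not follow the order of the members. It stood at 10.17, 10.56, 10.74 and 10.26 in spleen, against 5.60 to 6.53 in jejunum and 5.74 to 7.49 in lymph node. Of 18 brakes of the cell cycle 12 had a probeset, and 2 were higher and 0 lower. That is 16.7% higher, near the 13.7% of all probesets. These were CDKN2C, an inhibitor of the G1 cyclin-dependent kinases (1.37), and RBL2, a relative of the retinoblastoma protein (0.75). RB1 itself differed by 0.01 and CDKN1B by 0.23.

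Over the 39 arrays and 15075 other genes, the gene whose level was most like the median of the members was MTFR2, a mitochondrial fission regulator (Pearson's r = 0.977). It was followed by LOC485338, NEK2, NCAPH and KIF11, with r from 0.977 to 0.968, then by SHCBP1, ORC6, LOC487476, GTSE1 and KIFC1. NEK2, NCAPH, KIF11 and ORC6 were on the lists of further genes. MTFR2 had organ means of 6.03 in jejunum, 6.28 in lymph node and 4.56 in spleen, and between 3.47 and 4.13 in the other 7 organs. Within the members themselves, CCNA2 followed the median of the others most closely (r = 0.978), then TPX2 (0.973) and NDC80 (0.972), while ECT2 (0.567), CDCA8 (0.603) and CDK1 (0.689) were the lowest among the genes called in the dividing organs. The arrays of an organ share their tissue, so these r values describe the arrays and carry no p.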

How the data were processed

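RNA of 10 canine organs was measured on 39 Affymetrix Canine Version 2.0 arrays. The deposited log2 values were made by the authors with Partek and RMA, as the submitters' processing notes name them, with quantile normalization and median polish according to the study's methods, so levels are relative within an array. They were used with no further scaling, and 0 value columns were left out. Symbols came from the platform's probe gene table: 29254 probesets had 1 symbol, 439 several and 13167 none. The last 2 kinds entered the fits but no gene list. The probeset with the highest mean stood for a gene.

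All 39 arrays entered 1 linear model with a mean per organ and limma's moderated variance (limma 3.58.1, R 4.3.3). The p-values were adjusted by Benjamini and Hochberg over all 42860 probesets and called at a false discovery rate of 0.001. SE is limma's. Scan date, a factor in the study's model, is not in the labels. The scripts were tested on simulated data. The number of arrays limits the precision.

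For the closing section and the alternatives, 21 genes were named by rule. In each role these were the 2 genes with the largest signed difference and the 1 with the smallest. In roles of 2 genes or fewer, all were named. Further lists held mitosis, replication, brake, housekeeping and marker genes of organs and cell types. The members and lists were chosen with earlier results of these data known. Alternatives were other variance estimates, the replicate number as a block, scalings, filters, thresholds, probesets, organ choices and leaving out single arrays.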

Additional observations from a re-analysis of the deposited data

Results flagged for a closer look

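Each of the 21 named genes, and the median level of the 40 genes, was looked at in the 9 organs with 4 arrays, which gave 189 and 9 groups. In 12 of the 189, and in 0 of the 9, 1 array lay far from the other 3. Chance alone gives about 1 in 20 such groups. On lymph node array 1 CCNA2 stood at 6.18, against 7.72 to 7.77 on the others, and on lymph node array 2 CDK1 stood at 8.24, against 6.39 to 6.49. Lung array 2 was high in CDK1 (6.55, against 4.78 to 5.05) and in NUF2 (6.37, against 4.10 to 4.40). The other cases were MELK at 3.75 on liver array 1 (3.30 to 3.37 on the others) and 3.47 on cerebrum array 3 (3.11 to 3.13), AURKB at 4.29 on kidney array 2 (4.63 to 4.69), NUF2 at 4.42 on kidney array 1 (3.90 to 3.95) and 4.09 on heart array 2 (3.77 to 3.80), CDK1 at 3.57 on cerebrum array 1 (3.75 to 3.78), RRM2 at 4.0 on heart array 4 (4.15 to 4.18) and CDC6 at 4.29 on skeletal muscle array 1 (3.85 to 3.91). Cerebrum array 3 and skeletal muscle array 1 are among the 5 arrays that held pancreatic genes.

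The excess over the post-mitotic organs differed between dividing organs for 16 comparisons of a named gene, by limma's contrast of the organ means. Jejunum was above spleen by 2.90 in TOP2A, 2.59 in CCNB2, 2.36 in CDC20, 1.90 in MELK, 1.83 in RRM2, 1.78 in AURKB and 1.04 in CENPF, on the log2 scale, with adjusted p from 1.08e-06 to 0.00076. Lymph node was above spleen by 3.02 in TOP2A, 2.94 in RRM2, 2.73 in CCNA2, 2.37 in CCNB2, 2.10 in CDC20, 1.91 in NUF2, 1.68 in CENPF, 1.58 in MELK and 1.51 in AURKB, with adjusted p from 7.13e-09 to 0.00044. These comparisons share the 4 spleen arrays.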

How the results depend on the processing

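The count of 35 genes higher in the dividing organs stayed at 35 without any single array, and the count of the F test at 38. Other counts ran from 23 to 32 (jejunum), 34 to 36 (lymph node), 8 to 15 (spleen), 0 to 1 (liver), 2 to 2 (kidney), 4 to 7 (lung), 5 to 7 (pancreas), 2 to 6 (jejunum against lymph node), 7 to 13 (jejunum against spleen) and 11 to 22 (lymph node against spleen), and the median difference from 1.43 to 1.61. The 8 in spleen was without spleen array 2. Liver reached 1, a gene called lower, without heart array 4, jejunum array 4, liver array 3, lymph node array 1 or skeletal muscle array 2. Without spleen array 2 it also reached 1, a gene called higher. After the shift to 13 housekeeping genes the counts, higher and lower together, were 23 (dividing organs), 18 (jejunum), 22 (lymph node), 1 (liver), 23 (kidney, all lower), 20 (lung, 19 lower), 0 (jejunum against lymph node) and 5 (lymph node against spleen), and the median difference was 0.29. Without ribosomal protein genes and EEF1A1, with 7 genes left (chosen after seeing the data), they were 19, all higher, in the dividing organs, 14 in jejunum, 22 in lymph node, 3 in spleen, 1 in kidney, 2 in lung, 1 for jejunum against lymph node and 7 for lymph node against spleen, and the median was 0.84. At a false discovery rate of 0.05, 25 genes were higher in spleen and 11 in lung, with 0 lower. Liver had 4 higher and 2 lower, kidney 4 and 1, and pancreas 8 and 3. Against lymph node 15 were lower in jejunum, and against spleen 17 were higher in jejunum and 29 in lymph node. Of all 42860 probesets 6739 were then higher in spleen, 7307 in lung, 5490 in liver, 5645 in kidney and 10808 in pancreas. The lower ones were 7611 in liver, 5933 in kidney and 9170 in pancreas. For the 3 contrasts between dividing organs they were 5424 lower, 3702 higher and 2444 higher. Ordinary variances and the variance trend each called 1 gene lower in liver. With dim probesets left out 3 genes were called in pancreas, with the probeset of largest SD 1 in kidney, and with any probeset 9 between jejunum and lymph node. Leaving out the 5 arrays that held pancreatic genes gave 4 in lung and 11 for lymph node against spleen. It leaves 1 skeletal muscle array, assumed to vary like the others. With all 7 other organs in place of the dividing organs the median difference was 0.72. Values changed sign for NCAPG (0.0102 without the 5 arrays, 0.26 against heart and skeletal muscle alone, 0.0954 with all 7 organs), and E2F1 (−0.0138 with all 7 organs). Under the housekeeping shift they did so for PBK (−1.12), CDC6 (−0.85), RRM1 (−0.41), CENPA (−1.06) and E2F1 (−1.19), and under the shorter housekeeping list for PBK (−0.57), CDC6 (−0.31), CENPA (−0.51) and E2F1 (−0.64). The shifts move every gene of an array alike. In the dividing organs 968 of all 42860 probesets were higher and 36114 lower after the shift to 13 housekeeping genes. With the shorter list 1448 were higher and 8674 lower. For the other settings the cause was not tested. Signals near background limit the dim genes.

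The replicate number as a block called 5 genes lower in jejunum than in lymph node, against 3 without it, and moved no other count by over 1.5 times. Of 171 same-numbered pairs of arrays of different organs 101 had deviations correlated above 0.1 (median r 0.14), and 30 of the 39 arrays correlated best with their own number, which is a hint from the data only.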
